A study of Mus musculus with 12 samples.

Results

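MHC class I and antigen processing genes were followed across 3 murine acute myeloid leukaemia (AML) lines by every array probe set annotated to 1 gene and naming one of 10 members. The members were the class I heavy chains H2-K1 and H2-D1, the light chain B2m, the peptide transporter genes Tap1 and Tap2, Tapbp, the immunoproteasome subunits Psmb8, Psmb9 and Psmb10, and the regulator Nlrc5. This gave 18 of 28898 single-gene probe sets, for 7 of the 10 members: 4 for H2-K1, 5 for H2-D1, 3 for Psmb9, 2 each for Tapbp and Psmb8, and 1 each for Psmb10 and Nlrc5. B2m, Tap1 and Tap2 had no single-gene probe set in the annotation used and were not analysed here.

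The lines named TB13 and TB14 expressed Trib1 together with Bcl11a, and the line named Trib1 expressed Trib1 without Bcl11a. Trib1 is a pseudokinase that drives AML in mice, and Bcl11a is a zinc finger transcription factor. All cells grew in serum-containing medium with interleukin-3 and received no treatment. Each line was measured on 4 arrays. The labels do not say that the 4 arrays came from separate cultures, so a p-value here measures the spread between arrays, and Trib1 alone is represented by a single line. Every comparison of TB13 or TB14 with Trib1 uses the same 4 Trib1 arrays.

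Class I molecules carry peptides from cytosolic proteins to the cell surface, where CD8 T cells read them. The proteasome cuts the proteins, the transporter moves the peptides into the endoplasmic reticulum, and the loading complex places them on the heavy chain. Interferons induce Psmb8, Psmb9 and Psmb10, which take the places of the constitutive catalytic subunits Psmb5, Psmb6 and Psmb7, and Nlrc5 drives transcription of class I genes through conserved promoter elements.

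In TB14, the brightest probe sets of the class I heavy chains, Tapbp and the immunoproteasome subunits were lower than in Trib1. Of the 17 member probe sets that passed the filter on dim values, 15 were called lower and 0 higher (limma, adjusted p under 0.05), where 19.9% of the 17480 tested probe sets were called lower and 29.6% higher. Their median log2 change was -0.42, against 0.0084 over all tested probe sets. Of these 17, Nlrc5 passed the filter through Trib1 and TB13 arrays alone and the H2-D1 probe set 1451934_PM_at almost wholly through TB13 arrays, so the count is a description and not support. With the filter set on all 12 arrays, 14 remained, of which 13 were called lower and 0 higher. The shares of all probe sets called lower and higher under that filter are not given here, so this count too is a description. In 15 of the 17 all 4 TB14 arrays lay below all 4 Trib1 arrays, as did 23.5% of all tested probe sets. In TB13 the picture depended on how the arrays were scaled. As deposited, 10 of the 17 were called lower and 3 higher, where 64.4% of all tested probe sets were called lower and 26% higher. After quantile scaling 9 were called lower and 5 higher, against backgrounds of 43.1% and 37%. After median scaling 14 were called lower and 2 higher (73% and 17.6%), and after calibration on control probe sets 4 lower and 10 higher (10.5% and 75.3%). For the mean of both lines, as deposited, 13 were called lower and 2 higher, where 55.1% of all tested probe sets were called lower and 25.9% higher. With each line's mean taken as 1 sample, 0 members were called in either direction for that contrast. The remaining probe set, for H2-D1 (1427651_PM_x_at), read 13.8 to 16.5 on all 12 arrays and was not tested.

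Arrays of TB13 were set apart by their controls. Hybridization controls, transcripts added in equal amount to each array by the standard protocol, were lower on TB13 arrays by a median log2 of -0.93 against Trib1, and differed by 0.0010 between TB14 and Trib1. Over all tested probe sets, the median log2 change of TB13 against Trib1 was -0.39 as deposited, -0.030 after quantile scaling, -0.62 after median scaling and 0.55 after a calibration on 18 hybridization controls. The TB13 values below are to be set against these shifts, and the part of array quality in them was not tested. As these are bulk RNA samples, fewer cells with a transcript and less of it per cell cannot be told apart. All 10 listed AML markers averaged above their arrays' medians in every line, and several differed between TB14 and Trib1, in both directions. Mpo, a granule enzyme of early myeloid cells, averaged 2296 in TB14 and 226 in Trib1, and Kit averaged 504 in TB14 and 239 in Trib1. Csf1r, a monocyte receptor, averaged 56.0 in TB14 and 156 in Trib1, and Itgam (CD11b) 154 in TB14 and 260 in Trib1. Over the list, 4 of 10 were called higher and 5 lower in TB14, where 27% and 21.5% of all genes were. The list's sum was 9215 to 9324 on TB14 arrays and 7092 to 7338 on Trib1 arrays. Bright genes such as Mpo weigh most in this sum, so it does not measure the share of AML cells. Of the 7 measured T and NK cell markers 6 were tested, and 2 were called lower in TB14, where 21.5% of all genes were. These were Cd3d and Cd3g, the latter at 13.9 in TB14 and 69.0 in Trib1. Cd3g exceeded its array's median in Trib1 only, so it had to be lower elsewhere and its call is no support for a fall. The summed level of the 7 was 174 to 181 on TB14 arrays and 243 to 252 on Trib1 arrays. Cd3g makes up most of this gap, so the sum is no support for a fall either. The 5 dendritic cell markers summed to 135 to 144 on TB14 arrays and 285 to 344 on Trib1 arrays. Itgax (CD11c), at 57.3 in TB14 and 216.8 in Trib1, was the only one called of the 4 tested, while Zbtb46, Flt3, Batf3 and Xcr1 averaged 15.1 to 28.6 in TB14 and Trib1. Hba-a1, a globin gene of red cells, averaged 1459 in TB14 and 857 in Trib1. Among stromal markers, the collagen genes averaged at most 12.2 in any line. Pdgfrb, also a stromal marker, averaged 52.2 in TB13, 81.2 in TB14 and 85.7 in Trib1, and was not called in TB14. The 4 measured B cell markers summed to 86.4 to 93.9 on TB14 arrays and 90.5 to 94.4 on Trib1 arrays. No detection calls were used, so a dim reading does not say whether a marker's transcript was present. The part of these markers in the class I results was not tested. The 4 Bcl11a probe sets read 6.7 to 17.3 in TB13 and TB14 and 7.6 to 21.5 in Trib1, so they give no check of the labels, and the sources used here do not say which part of the introduced transcript they read.

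H2-K1 encodes the H-2K heavy chain, which presents peptide to CD8 T cells. Its brightest probe set (1425336_PM_x_at) read 2436, 2411, 2391 and 2339 on the TB14 arrays, against 3016, 3053, 3053 and 3020 on the Trib1 arrays. All TB14 arrays were lower than all Trib1 arrays, by a log2 change of -0.34 ± 0.015 (SE, n = 4 per line, limma adjusted p = 4.04e-13). The TB13 arrays read 2982, 3035, 3024 and 3083, a range that overlapped Trib1. Their log2 change was -0.0024 as deposited (limma adjusted p = 0.884), was called higher at 0.071 after quantile scaling and called lower at -0.27 after median scaling. The other H2-K1 probe sets were also lower in TB14, with log2 changes of -0.49 (1427746_PM_x_at), -0.43 (1424948_PM_x_at) and -0.42 (1450534_PM_x_at).

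The H2-K1 probe sets did not behave alike in TB13. The probe set 1450534_PM_x_at read 174, 172, 165 and 177 on TB13 arrays, 71.1, 71.3, 71.4 and 73.4 on TB14 arrays, against 92.2, 106.7, 108.8 and 96.0 on Trib1 arrays. TB13 lay above Trib1 and TB14 below it, with no overlap between any of the lines. In TB13 its log2 change was 0.70 ± 0.053 (SE, n = 4 per line, limma adjusted p = 1.84e-10), and it was called higher under all 4 scalings, at up to 1.75 with the calibration. Names ending in x_at mark probe sets whose probes also match related transcripts, and class I genes are near-identical copies of each other, so which heavy chain such a probe set reads is uncertain.

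H2-D1 encodes the H-2D heavy chain. Its brightest probe set (1451784_PM_x_at) read 2224, 2212, 2270 and 2103 on TB13 arrays, 1508, 1593, 1572 and 1578 on TB14 arrays, against 2337, 2393, 2417 and 2363 on Trib1 arrays. TB14 was lower than the other lines without overlap, at a log2 change of -0.60 ± 0.023 against Trib1 (SE, n = 4 per line, limma adjusted p = 2.49e-14). The TB13 change was -0.11 as deposited and 0.027 after quantile scaling, where it was not called. The dimmer H2-D1 probe sets were more mixed: 1450170_PM_x_at changed by -0.26 and 1451934_PM_at by -0.15 in TB14, while 1452544_PM_x_at was not called at -0.072 (limma adjusted p = 0.462). In TB13, 1451934_PM_at was called higher under all 4 scalings, at 0.57 as deposited, 0.45 after quantile scaling, 0.38 after median scaling and 1.63 with the calibration, and 1452544_PM_x_at was called higher at 0.29 as deposited. For 1451934_PM_at, 4 of the 5 arrays above their median were TB13 arrays, so it had to be high there to be tested. Its TB14 call was not made after quantile scaling or calibration, nor without Trib1 replicate 1 (limma adjusted p = 0.0757) or TB14 replicate 4 (0.0597).

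A further 5 probe sets are annotated to H2-K1, H2-D1 and LOC547349 together and are not counted among the 18. The brightest of them (1425545_PM_x_at) averaged 2436 ± 62.2 in TB13, 1739 ± 20.5 in TB14 and 2545 ± 42.0 in Trib1 (SD, n = 4). In 4 of the 5 all TB14 arrays lay below all Trib1 arrays. These shared probe sets were not tested as genes.

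The promoters of H2-K1 and H2-D1 are shown because both heavy chains were lower in TB14 and because class I promoters carry conserved elements. RefSeq windows of 250 bases before to 50 after the annotated start (build GRCm38.p6) existed for 8 of the 10 members, and not for Tap2 or Nlrc5. Capitals mark matches on either strand to the interferon response element letters GAANNGAAA, or GAAA and GAAA with 2 bases between, to the kappa B letters GGG and CCC with 4 bases between, and to CCAAT.
H2-K1, chr17:34000298-34000597, minus strand: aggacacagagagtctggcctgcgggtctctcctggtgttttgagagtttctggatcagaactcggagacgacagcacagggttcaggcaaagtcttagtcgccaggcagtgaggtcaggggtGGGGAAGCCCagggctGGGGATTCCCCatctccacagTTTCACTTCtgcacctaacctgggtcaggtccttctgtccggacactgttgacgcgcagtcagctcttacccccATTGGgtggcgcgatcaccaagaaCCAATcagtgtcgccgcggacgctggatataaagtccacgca
H2-D1, chr17:35262844-35263143, plus strand: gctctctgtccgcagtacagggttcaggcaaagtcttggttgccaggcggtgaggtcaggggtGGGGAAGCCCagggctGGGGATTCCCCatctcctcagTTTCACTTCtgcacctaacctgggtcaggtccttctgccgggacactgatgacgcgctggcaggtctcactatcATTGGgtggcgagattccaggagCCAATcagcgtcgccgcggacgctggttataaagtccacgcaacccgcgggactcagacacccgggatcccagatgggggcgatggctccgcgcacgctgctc
The windows aligned over 228 positions, of which 206, or 90.4%, were identical. Both held GAANNGAAA once (7.52% of 32851 promoter windows hold it), the kappa B letters 3 times, with an overlap between a pair of the matches (11.9% of windows hold it), CCAAT 2 times (37.4% of windows) and TGACG, the core of cyclic AMP response elements, once (20.8% of windows). Relative to the annotated start, the GAANNGAAA match lay at -90 to -82 in H2-K1 and at -150 to -142 in H2-D1. GAGGAA, a core bound by PU.1, was in none of the 8 members' windows and in 28.3% of all windows. H2-K1 has a second annotated start, in whose window the same GAANNGAAA match lies at -104 to -96. A match is a run of letters, and no match says only that the letters are absent from the window.

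Tapbp encodes tapasin, which bridges the peptide transporter and the class I heavy chain during loading. Its brighter probe set (1421812_PM_at) read 722, 717, 764 and 747 on TB13 arrays, 1104, 1107, 1110 and 1063 on TB14 arrays, against 1450, 1402, 1373 and 1377 on Trib1 arrays. Both lines were below Trib1 without overlap, TB14 at a log2 change of -0.35 ± 0.026 (SE, n = 4 per line, limma adjusted p = 9.60e-10) and TB13 at -0.91 ± 0.026 (limma adjusted p = 1.42e-16). TB13 changed by -0.50 after quantile scaling and by -0.38 with the calibration, and was called lower each time. The dimmer Tapbp probe set (1450378_PM_at) averaged 192 ± 13.5 in TB13, 338 ± 10.8 in TB14 and 409 ± 9.33 in Trib1 (SD, n = 4).

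**Figure D1:**
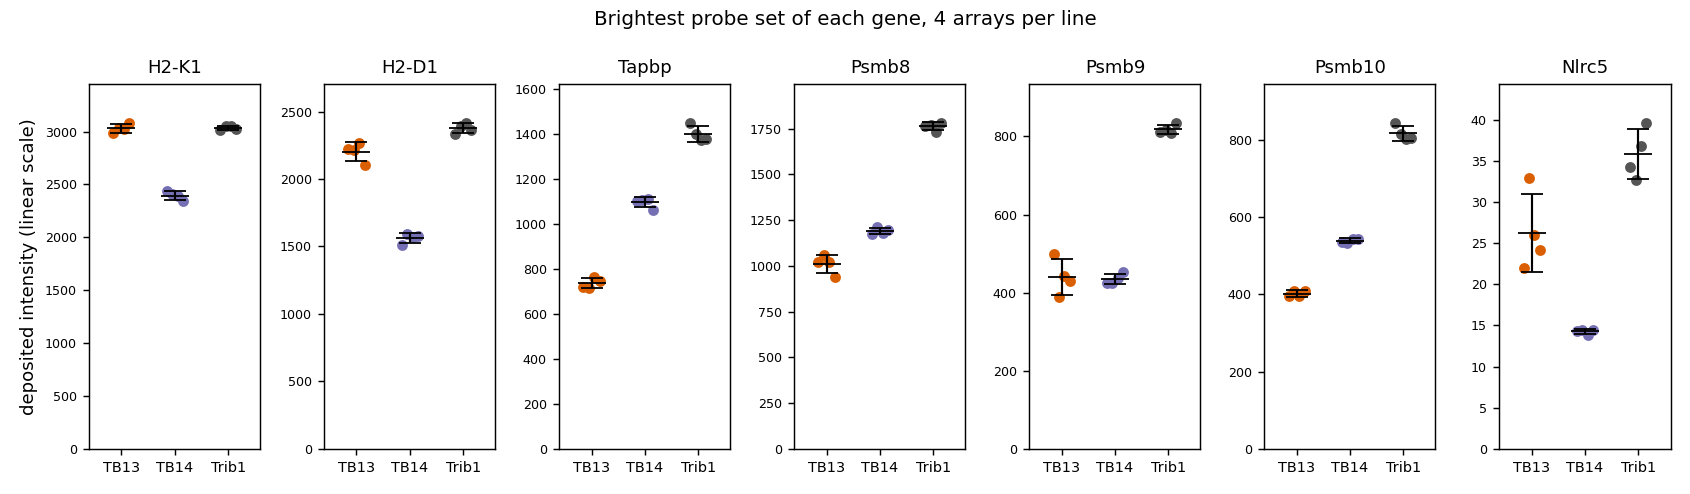
Deposited intensity (linear, each vertical axis starting at 0) of the brightest probe set of each of the 7 measured genes in TB13, TB14 and Trib1. Points are the 4 arrays, and bars are the mean and SD. TB14 lies below Trib1 for every gene, while H2-K1 and Nlrc5 in TB13 overlap Trib1.

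Psmb8, Psmb9 and Psmb10 encode the catalytic subunits LMP7, LMP2 and MECL1 of the immunoproteasome, which change the peptides cut for class I. All 3 were lower in TB14 and, as deposited, in TB13. Psmb8 (1422962_PM_a_at) read 1019, 1058, 1023 and 941 on TB13 arrays, 1175, 1214, 1177 and 1194 on TB14 arrays, against 1762, 1772, 1732 and 1782 on Trib1 arrays. Psmb10 (1448632_PM_at) read 395, 409, 394 and 409 on TB13 arrays, 535, 533, 543 and 544 on TB14 arrays, against 844, 816, 801 and 804 on Trib1 arrays. Psmb9 (1450696_PM_at) read 500, 390, 442 and 431 on TB13 arrays, 424, 426, 437 and 453 on TB14 arrays, against 811, 816, 809 and 835 on Trib1 arrays. No array of TB13 or TB14 reached the Trib1 range for any of these probe sets.

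In TB14 the log2 changes were -0.56 ± 0.028 for Psmb8 (SE, n = 4 per line, limma adjusted p = 1.91e-12), -0.89 ± 0.050 for Psmb9 (1.18e-11) and -0.59 ± 0.028 for Psmb10 (1.13e-12). On this scale, which adds 12.7 to each intensity, they were 1.48-fold, 1.86-fold and 1.502-fold lower. In TB13 they were -0.80, -0.88 and -0.999 as deposited, -0.47, -0.27 and -0.38 after quantile scaling, and -0.38, -0.15 and -0.26 with the calibration. These 3 and the brighter Tapbp probe set were the 4 member probe sets called lower in TB13 under all 4 scalings, where 10.2% of all tested probe sets were. In TB14, 14 of the 17 were called lower under all 4 scalings, where 16% of all tested probe sets were.

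The remaining probe sets of these genes differed from the bright ones. A further Psmb9 probe set (1416016_PM_at) averaged 150 ± 9.55 in TB13, 161 ± 5.22 in TB14 and 253 ± 3.97 in Trib1 (SD, n = 4), and was called lower in TB14 at a log2 change of -0.61. The third (1448177_PM_at) read 20.2 to 27.8 on all arrays and was not called in TB14 (0.0040, limma adjusted p = 0.961). Both are assigned to Psmb9 through the same expressed sequence tag, and these names rest on the platform annotation alone. The dim Psmb8 probe set (1444619_PM_x_at) read 25.9 to 36.6 and changed by -0.25 in TB14.

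The Psmb9 window is shown because Psmb9 was called lower in TB14 under all 4 scalings and because it starts 225 bases from Tap1 on the other strand, so that their windows share 275 bases.
Psmb9, chr17:34187281-34187580, minus strand: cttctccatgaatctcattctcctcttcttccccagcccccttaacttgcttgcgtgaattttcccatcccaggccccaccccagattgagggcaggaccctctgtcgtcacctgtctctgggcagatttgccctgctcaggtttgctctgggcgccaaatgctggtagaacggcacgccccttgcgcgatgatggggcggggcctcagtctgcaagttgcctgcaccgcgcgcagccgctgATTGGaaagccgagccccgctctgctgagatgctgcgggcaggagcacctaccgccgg
Of the motif letters searched, the window held CCAAT once, marked in capitals at -8 to -4, and TGACG once. TTCNNNGAA, the letters of a gamma-activated site, were in the Psmb8 window only among the 8 member windows, and in 8.3% of all windows.

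**Figure D2:**
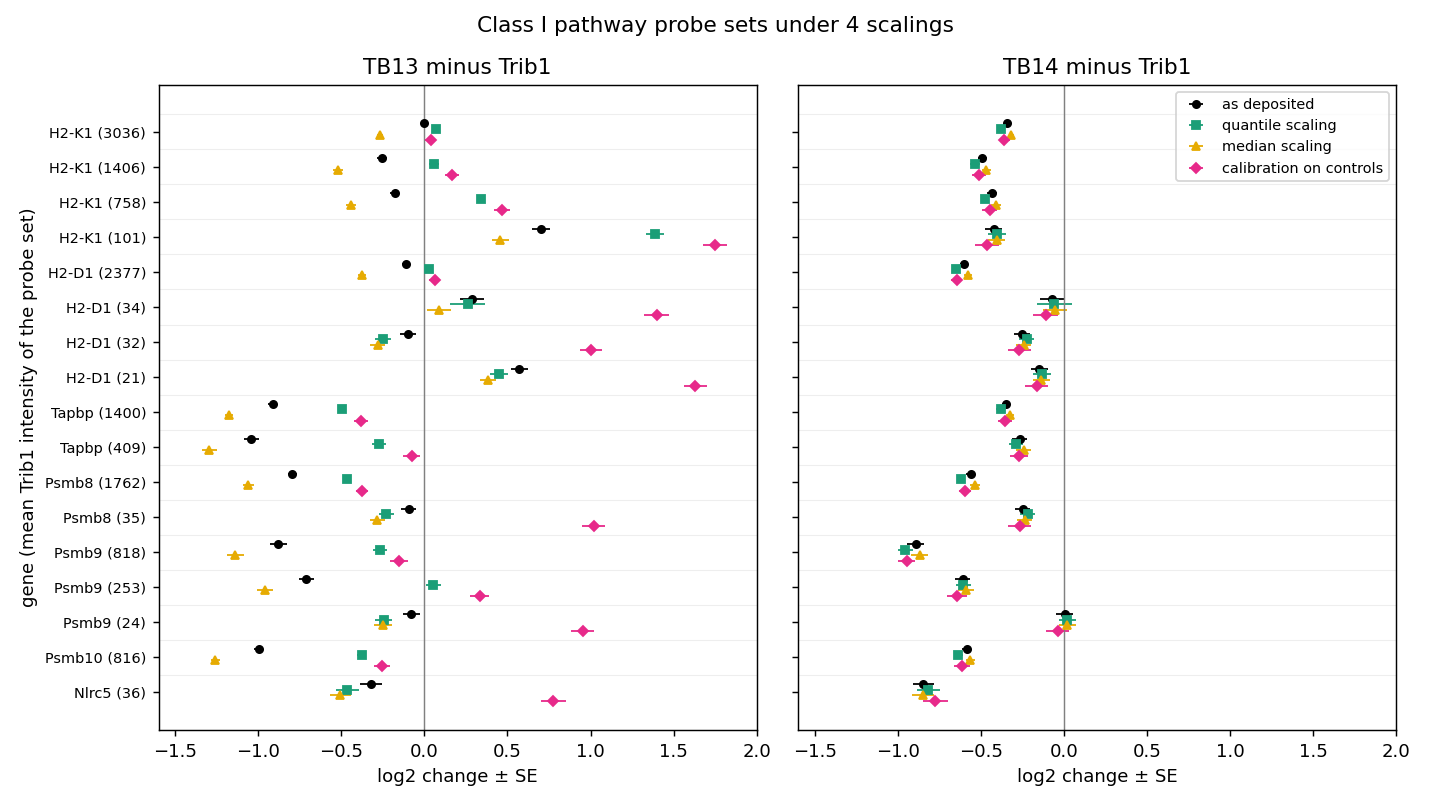
Log2 change ± SE of the 17 tested member probe sets in TB13 (left) and TB14 (right) against Trib1 under 4 scalings; numbers in brackets are mean Trib1 intensities. The 4 scalings lie close together in TB14 and spread apart in TB13, most for dim probe sets under the calibration.

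Nlrc5, the class I transactivator, was dim. Its probe set (1437176_PM_at) read 21.9, 32.9, 26.0 and 24.1 on TB13 arrays, 14.3, 14.4, 13.9 and 14.5 on TB14 arrays, against 34.3, 32.7, 36.8 and 39.6 on Trib1 arrays. TB14 was below both other lines, while 1 TB13 array reached the Trib1 range. The log2 change was -0.85 ± 0.066 in TB14 (SE, n = 4 per line). The probe set was above the array median on all 4 Trib1 arrays, 2 TB13 arrays and 0 TB14 arrays, so it entered the test only because it was higher outside TB14, and its call is no support for a fall. The TB14 readings lay under their arrays' medians of 20.8 to 21.1, and no detection calls were used here, so the size of the change is uncertain. In TB13 it was -0.32 as deposited and 0.78 with the calibration.

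The immunoproteasome subunits moved against their constitutive counterparts in TB14. The constitutive Psmb5 averaged 1787 ± 25.03 in TB14 and 1616 ± 28.5 in Trib1 (SD, n = 4), a log2 change of 0.14 that was called higher. Psmb7 averaged 1057 ± 18.8 in TB14 and 864 ± 26.8 in Trib1, a log2 change of 0.29 that was also called higher. Psmb6 averaged 1011 ± 10.4 in TB14 and 969 ± 18.9 in Trib1 and was not called at 0.060 (limma adjusted p = 0.0743), though it was called higher under the other 3 scalings. Thus 2 of the 3 constitutive subunits were called higher, where 27% of all 11223 genes were.

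Within each array, the log2 difference between an immunoproteasome subunit and its counterpart removes a scaling that acts equally on both. Psmb8 minus Psmb5 was -0.38, -0.26, -0.34 and -0.47 on TB13 arrays, -0.63, -0.55, -0.59 and -0.56 on TB14 arrays, against 0.088, 0.13, 0.11 and 0.16 on Trib1 arrays. Every TB13 and TB14 array was below every Trib1 array. Psmb9 minus Psmb6 averaged -0.53 ± 0.12 in TB13, -1.19 ± 0.035 in TB14 and -0.24 ± 0.036 in Trib1 (SD, n = 4). Psmb10 minus Psmb7 averaged -0.41 ± 0.043 in TB13, -0.95 ± 0.034 in TB14 and -0.081 ± 0.069 in Trib1. For these pairs too the ranges of TB13 and TB14 lay below that of Trib1. The change against Trib1 was -0.49, -0.28 and -0.33 in TB13 and -0.71, -0.95 and -0.87 in TB14, in the order of the pairs given. A difference between probe sets shows unequal change only, not which subunit is more abundant, and no test was made of it.

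**Figure D3:**
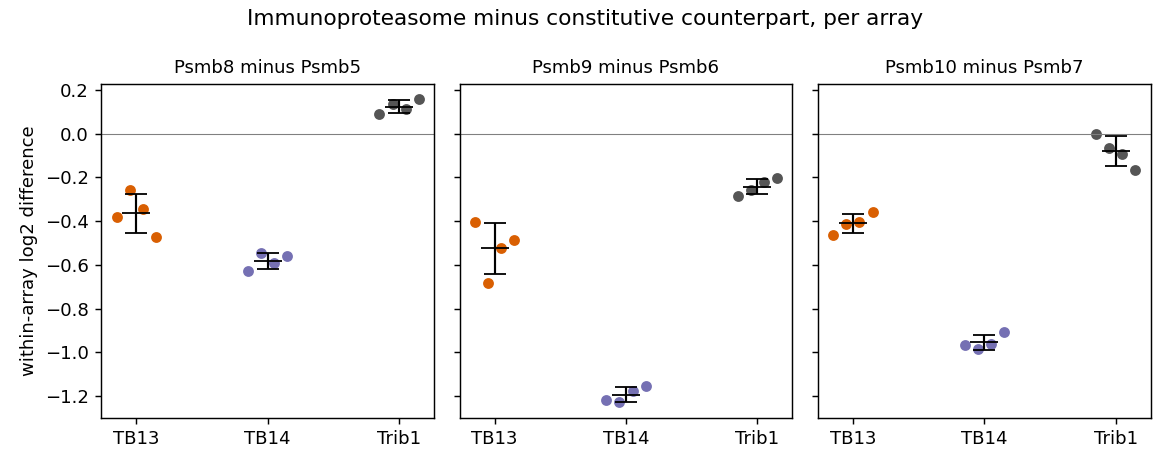
Log2 intensity of each immunoproteasome subunit minus that of its constitutive counterpart on the same array (vertical axis) in TB13, TB14 and Trib1. Points are the 4 arrays per line, bars are the mean and SD, and the zero line is only a guide, since probe sets differ in brightness; all TB13 and TB14 arrays lie below the Trib1 arrays in each panel.

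The rest of the proteasome core mostly rose in TB14. Of 11 other core subunits, 9 were called higher and 1 lower, where 27% and 21.5% of all genes were. Their median log2 change was 0.14, against -0.0024 over all genes. Psma4 showed a log2 change of 0.21, Psma5 0.18, Psma7 0.17 and Psma3 0.16. The activators and assembly factors split: 5 of 8 were called higher and 3 lower, where 27% and 21.5% of all genes were. Psme1 and Psme2, the interferon-inducible activator subunits that favour class I peptides, fell by 0.37 and 0.32 on the log2 scale. Psme1 averaged 1423 ± 26.6 in TB14 and 1842 ± 14.4 in Trib1, and Psme2 averaged 971 ± 10.4 in TB14 and 1213 ± 21.6 in Trib1 (SD, n = 4). Psme3, which forms a separate nuclear activator, rose by 0.32, and the assembly chaperone gene Psmg3 rose by 0.33. Psmg1, Psmg2, Psma6 and Psmb3 were called higher in TB14 and lower in TB13 as deposited, where 63.6% of all genes were called lower in TB13. After quantile scaling none of the 4 was called in TB13, at log2 changes of 0.036, 0.053, -0.012 and -0.055.

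**Figure D4:**
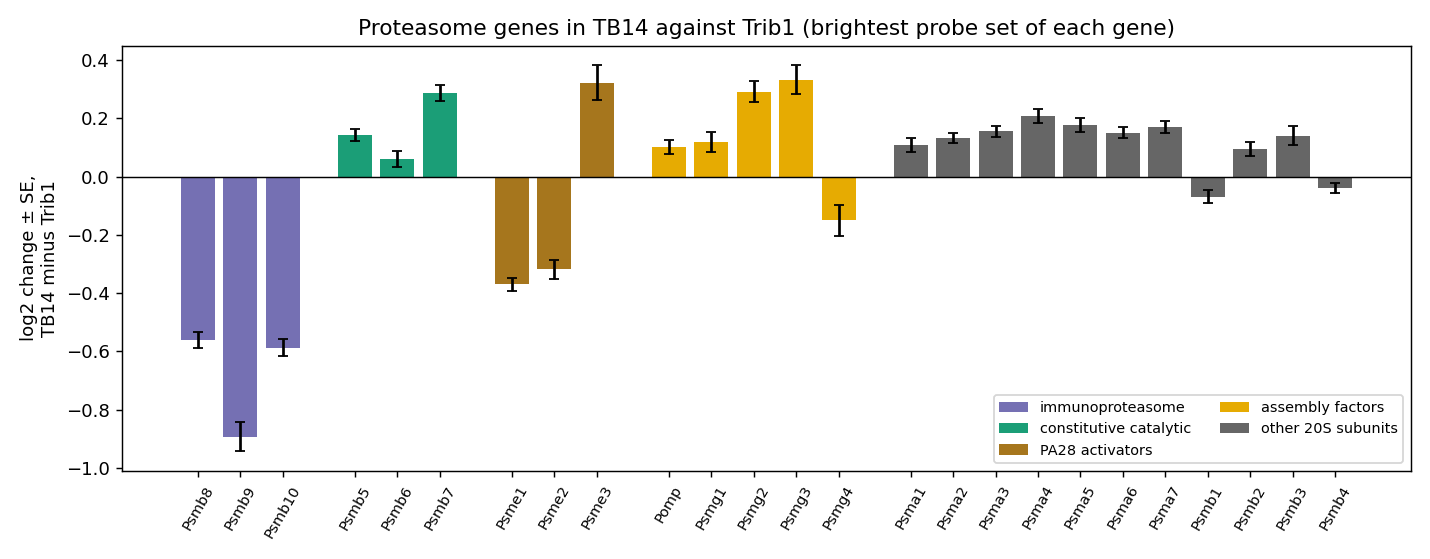
Log2 change ± SE of proteasome genes in TB14 against Trib1 as deposited, by the brightest probe set of each gene, in 5 colour groups. Bars for Psmb8, Psmb9, Psmb10, Psme1 and Psme2 lie below 0, as do the shorter bars for Psmg4, Psmb1 and Psmb4. Those of the constitutive catalytic subunits lie above it.

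Among other class I and class I-like chains, 9 of 24 listed genes were tested, of which 4 were called lower and 2 higher in TB14, where 21.5% and 27% of all genes were. Of the 4, H2-Q4 and H2-T24 exceeded their array's median in Trib1 only and so had to be lower elsewhere, and with the filter on all 12 arrays 2 of 7 were called lower. The share of all genes called lower under that filter is not given here. H2-T23, which encodes the non-classical chain Qa-1, averaged 623 ± 10.8 in TB14 and 1237 ± 23.8 in Trib1 (SD, n = 4), a log2 change of -0.97. H2-T10 changed by -0.55. Cd1d1, which presents lipids to NKT cells, rose by 1.23, at 196 ± 8.74 in TB14 and 76.1 ± 4.42 in Trib1. H2-T23, H2-T10 and Cd1d1 averaged 683, 106 and 58.0 in TB13. Of the 8 peptide trimming and loading partners, 4 were called higher and 2 lower, shares of the list to be read beside 27% and 21.5% of all genes. Calr, the chaperone calreticulin of the loading complex, rose by 0.31 and the aminopeptidase gene Npepps by 0.46, while Tapbpl, a tapasin-related editor, changed by -0.28 and Thop1, a peptidase gene, by 0.26. Canx, encoding calnexin, was called higher in TB14 at 0.067 and lower in TB13 at -0.15 as deposited, and was not called in TB13 after quantile scaling. After quantile scaling Thop1 and Tapbpl were no longer called, at log2 changes of 0.20 and -0.28 (limma adjusted p = 0.0629 and 0.102).

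Of 16 tested factors that act at class I promoters, 8 were called lower and 6 higher in TB14, where 21.5% and 27% of all genes were. Rfxank, a subunit of the factor RFX through which Nlrc5 acts, averaged 92.4 ± 1.99 in TB14 and 167 ± 7.43 in Trib1 (SD, n = 4), a log2 change of -0.77. The other RFX subunits did not go the same way. Rfxap was called higher in TB14 at 0.41, and Rfx5 was not called at -0.11 (limma adjusted p = 0.151). Irf1, which binds interferon response elements, averaged 230 ± 4.41 in TB14 and 363 ± 13.3 in Trib1, a log2 change of -0.63. Irf8 changed by -0.75 and Irf9 by -0.57. Nfyb, a subunit of the CCAAT-binding factor, rose by 0.49 and Creb1, a cyclic AMP response factor, by 0.51, and in TB13 both were called lower as deposited but higher after quantile scaling, at 0.30 and 0.34.

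Of 10 interferon receptor and signalling genes, 5 were called lower and 2 higher in TB14, where 21.5% and 27% of all genes were. Their median log2 change was -0.096, against -0.0024 over all genes, and 3 were called lower after median scaling, after calibration and without Trib1 replicate 2, 3 or 4 or TB14 replicate 3. Socs3, a feedback inhibitor of cytokine signalling, averaged 40.5 ± 1.58 in TB14 and 144 ± 7.20 in Trib1 (SD, n = 4), a log2 change of -1.56. The receptor gene Ifnar2 changed by -0.69 and the kinase gene Jak2 by -0.49. Ifnar1 rose by 0.29 as deposited and was not called after quantile scaling, at 0.23 (limma adjusted p = 0.139). Ptpn2, a phosphatase that acts on Jak kinases, was called higher in TB14, and in TB13 was called lower at -0.12 as deposited but higher at 0.31 after quantile scaling.

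Between TB14 and TB13, 10 of the 17 were called lower and 5 higher in TB14 as deposited, where 26% of all tested probe sets were called lower, 65.1% higher and 91.2% either way. The share of members called either way was thus near that of all probe sets. As deposited, the median log2 change of TB14 minus TB13 was -0.16 for the 17 and 0.43 over all tested probe sets. After median scaling 5 were called lower and 7 higher, with a median log2 change of 0.047 for the 17 and 0.68 over all tested probe sets. H2-K1 (1425336_PM_x_at) and H2-D1 (1451784_PM_x_at) were lower in TB14 than in TB13 by log2 changes of -0.34 and -0.49, and were called lower under all 4 scalings. The brighter Tapbp probe set was higher in TB14 as deposited at 0.56, but only at 0.029 and not called with the calibration. Psmb8 and Psmb10 were higher in TB14 as deposited, at 0.23 and 0.41, and were called lower after quantile scaling and calibration.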

How the data were processed

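Total RNA of the 3 lines was measured as biotin-labelled cRNA on 12 one-colour arrays, 4 per line. The authors' deposited intensities are linear and come from MAS5, per the submitters' processing notes. Its version, its scaling target and the genome build are not stated in the sources. Array medians ran from 20.8 to 25.9, and the number of arrays limits the precision. Of 45141 probe sets, 104 were controls, 28898 had 1 gene in the platform annotation, 551 had several and 15588 had none.

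For the tests, 12.7, the 25th percentile of the file, was added to each intensity before taking log2, which shrinks the log2 change of dim probe sets. A single linear model over the 3 lines and 12 arrays was fitted with limma 3.58.1 (R 4.3.3) with a variance trend, on the 17480 single-gene probe sets above their array's median on at least 4 arrays. P-values were adjusted by Benjamini-Hochberg over all 17480, and a probe set was called at an adjusted p under 0.05. For gene lists the probe set with the highest mean stood for each of 11223 genes. On simulated data made for TB14 minus Trib1 over 17480 probe sets, 82% of 50 probe sets changed 1.2-fold were recovered, 100% of 50 at 1.5-fold, and 5 unchanged ones were called. The simulated noise was independent between arrays, with no shift of whole arrays and far fewer changed probe sets than were called in the data. Its rates therefore check the fit and do not carry over to these arrays.

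The members and lists were chosen with earlier results of these data known. Beside every member probe set, the text names from each list up to 4 genes called in TB14 minus Trib1 with the largest changes, up to 2 more whose calls in TB13 and TB14 had opposite signs, and all constitutive catalytic subunits. Rfxap and Rfx5 were named outside this rule, as the other subunits of RFX beside Rfxank. Other cell type markers were named only to check the samples. The array numbers of the labels did not pair samples: deviations of same-numbered arrays correlated at -0.095 to 0.133 over 12 pairs. Promoter windows and motifs came from RefSeq tables (GRCm38.p6), aligned with Biopython 1.88. Figures were drawn with matplotlib 3.10.9. Alternatives were 3 other scalings, other filters, other pseudocounts, other models of the variance, a block for the replicate number, 1 probe set per gene, line means and leaving out each array.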

Additional observations from a re-analysis of the deposited data

Results flagged for a closer look

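In 3 of 54 sets of 4 arrays, the highest or lowest array lay apart from the other 3 by more of the whole range than Dixon's critical value allows, and chance gives about 1 in 20. Trib1 replicate 2 read 787.6 for H2-K1 (1424948_PM_x_at), where the other Trib1 arrays read 744 to 751. TB14 replicate 4 read 73.36 for H2-K1 (1450534_PM_x_at), where the other TB14 arrays read 71.13 to 71.39, and 1063 for Tapbp (1421812_PM_at), where the others read 1104 to 1110.

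The effects of the lines that carry Bcl11a differed by the test of TB14 minus TB13 (limma, adjusted p under 0.05, as deposited) for 15 of the 17 tested member probe sets, where 91.2% of all tested probe sets differed, so the count does not set the members apart. For H2-K1 the log2 differences were -0.339 (1425336_PM_x_at), -0.235 (1427746_PM_x_at), -0.256 (1424948_PM_x_at) and -1.13 (1450534_PM_x_at). For H2-D1 they were -0.491 (1451784_PM_x_at), -0.359 (1452544_PM_x_at), -0.158 (1450170_PM_x_at) and -0.718 (1451934_PM_at), the last passing the filter almost wholly through TB13 arrays, where it was high. Tapbp differed by 0.564 (1421812_PM_at) and 0.777 (1450378_PM_at). Psmb8 differed by 0.235 (1422962_PM_a_at) and -0.155 (1444619_PM_x_at), Psmb9 by 0.102 (1416016_PM_at), Psmb10 by 0.412 and Nlrc5 by -0.523. The Psmb9 call was lost when any of 9 single arrays was left out, among them every Trib1 array, at log2 differences of 0.063 to 0.11. The share of this difference that comes with the lower TB13 hybridization controls was not tested.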

How the results depend on the processing

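Under the alternatives run, the TB14 changes of the member probe sets kept their direction, except that of the dim Psmb9 probe set 1448177_PM_at, which was not called. TB13 results depended on scaling, and dim probe sets, near the array medians, limit what can be said of Nlrc5 and most H2-D1 probe sets. The cause of the shifts below was not tested, beyond those set by fewer or more probe sets tested or by fewer samples.

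Probe sets called numbered 24047 for TB13 minus Trib1 and 24333 for TB14 minus TB13 without a filter. With 1 probe set per gene they numbered 10393 for TB13, 5445 for TB14 and 10414 for TB14 minus TB13. With each line mean as 1 sample, both lines against Trib1 gave 14 called probe sets, with 0 members higher and 0 lower.

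Members called higher in TB13 numbered 5 after quantile scaling, 10 after calibration and 0 with 1 probe set per gene; members called lower numbered 4 after calibration and 6 with 1 probe set per gene, and 7 were lower in TB14 with 1 probe set per gene. For both lines together, members called higher numbered 1 after median scaling and with the filter on all 12 arrays, 6 after calibration and 0 with 1 probe set per gene, where 7 were lower. Leaving out single arrays gave 1 to 3 (1 without Trib1 replicate 1). Over all tested probe sets, the median log2 change of both lines was -0.25 after median scaling and 0.33 after calibration. For TB14 minus TB13, members called higher numbered 2 after quantile scaling, 0 after calibration and 3 with 1 probe set per gene. Those called lower numbered 5 after median scaling, 16 after calibration and 3 with 1 probe set per gene. All tested probe sets shifted too, with median log2 changes of 0.050 after quantile scaling, 0.68 after median scaling and -0.54 after calibration. Most of these counts are given without the share of all probe sets called, so they are not read as setting the members apart. With 1 probe set per gene in TB14, all 7 tested members were called lower, where 21.5% of all genes were called lower in the main fit. Nlrc5 is among them and passed the filter through Trib1 and TB13 arrays alone, so this count is a description.

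Among lists in TB14, other class I chains had 1 higher after quantile scaling, calibration and without a filter (1 to 2 when single arrays were left out) and 2 lower with the stricter filter. Trimming partners had 1 lower after quantile scaling. Other proteasome core subunits had 2 lower after quantile scaling and in the fit of the compared lines alone, and 0 after median scaling, calibration and without the variance trend (0 to 2 when single arrays were left out). Interferon genes had 1 higher after quantile scaling, and 3 lower after median scaling and calibration (3 to 5 when single arrays were left out). Psmb8 minus Psmb5 in TB14 was -0.7642 after quantile scaling and -0.7896 after calibration. Psmb9 minus Psmb6 in TB14 was -1.016, -1.049 and, with a pseudocount of 50, -0.8987. Psmb10 minus Psmb7 was -0.2601 in TB13 after calibration, and -0.9468 and -0.964 in TB14.

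For member probe sets the direction turned in these cases; of the named list genes, Psme3, Psmg1, Psmg2, Psmg3, Psma3, Psma5, Psma7, Nfyb, Creb1, Irf1, Ptpn2 and Cd34 turned in TB13 after quantile scaling. TB13 against Trib1 after quantile scaling: H2-K1 0.07136 (1425336_PM_x_at), 0.05659 (1427746_PM_x_at) and 0.3413 (1424948_PM_x_at), H2-D1 0.02693 (1451784_PM_x_at) and Psmb9 0.05348 (1416016_PM_at). TB13 after calibration: H2-K1 0.1651 (1427746_PM_x_at) and 0.467 (1424948_PM_x_at), H2-D1 0.06104 (1451784_PM_x_at) and 1.003 (1450170_PM_x_at), Psmb8 1.019 (1444619_PM_x_at), Psmb9 0.3327 (1416016_PM_at) and 0.9534 (1448177_PM_at), and Nlrc5 0.7766 (1437176_PM_at). Both lines against Trib1 after calibration: H2-K1 0.01 (1424948_PM_x_at), H2-D1 0.3667 (1450170_PM_x_at), Psmb8 0.3753 (1444619_PM_x_at), Psmb9 0.4576 (1448177_PM_at) and Nlrc5 0.001199 (1437176_PM_at). TB14 minus TB13 after median scaling: H2-K1 0.05256 (1427746_PM_x_at) and 0.02981 (1424948_PM_x_at), H2-D1 0.03871 (1450170_PM_x_at), Psmb8 0.04744 (1444619_PM_x_at) and Psmb9 0.2693 (1450696_PM_at). TB14 minus TB13 after quantile scaling: H2-D1 0.02522 (1450170_PM_x_at), Tapbp -0.01033 (1450378_PM_at), Psmb8 -0.1519 (1422962_PM_a_at) and 0.01134 (1444619_PM_x_at), Psmb9 -0.6593 (1416016_PM_at) and Psmb10 -0.2614 (1448632_PM_at). TB14 minus TB13 after calibration: Tapbp -0.1921 (1450378_PM_at), Psmb8 -0.216 (1422962_PM_a_at), Psmb9 -0.9762 (1416016_PM_at) and -0.9917 (1448177_PM_at), and Psmb10 -0.3587 (1448632_PM_at).

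With the replicate number as a block, 67 of 68 log2 changes kept their side of the threshold; Psmb9 (1416016_PM_at), TB14 minus TB13, lost its call at 0.1018 (limma adjusted p = 0.0569). Without Trib1 replicate 1, H2-K1 (1450534_PM_x_at) lost its call for both lines (adjusted p = 0.0649).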
